A study of Mus musculus with 6 samples.

Results

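Glycolysis and the pentose phosphate pathway were followed through 31 genes, listed by their place in the pathway, out of 18049 genes measured in colonic crypts. All 31 were in the table, and all 31 passed the filter for testing, which 16670 of the 18049 genes passed. The 31 genes encode a glucose transporter (*Slc2a1*), the hexokinases *Hk1* and *Hk2*, the remaining enzymes from glucose 6-phosphate to pyruvate, lactate dehydrogenase subunits and the lactate carriers *Slc16a1* and *Slc16a3*, the pyruvate dehydrogenase subunits *Pdha1* and *Pdhb* with their kinases *Pdk1* and *Pdk2*, the regulators *Pfkfb2* and *Pfkfb3*, and 5 pentose phosphate enzymes.

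Crypts came from 3 control and 3 GSK503-treated mice of a Lynch syndrome model, with 1 library of total RNA per mouse. GSK503 is a small-molecule inhibitor of EZH2, the methyltransferase that places the repressive mark H3K27me3, and it was given at 200 μg/kg through the tail vein 2 times a week over a 9-week trial in PBS. Control mice received 20% captisol in PBS, so the groups also differed in what the injection contained. Both groups shared a C57BL/6J background, a Villin-Cre transgene, which deletes a floxed gene in the intestinal epithelium and not in other cells, a knocked-in humanized TgfβRII that carries a poly(A) microsatellite, and a Western-style diet from 8 weeks of age. The age and sex of single mice are not given in the sources used here.

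Glycolysis splits a glucose molecule into pyruvate in the cytosol and yields ATP and NADH. The committed step, from fructose 6-phosphate to fructose 1,6-bisphosphate, is catalysed by phosphofructokinase and is stimulated by fructose 2,6-bisphosphate, which the PFKFB enzymes make and break down. Pyruvate can be reduced to lactate and exported, or oxidised by the pyruvate dehydrogenase complex, while the pentose phosphate pathway diverts glucose 6-phosphate into NADPH and ribose 5-phosphate. In the colon these routes serve dividing crypt cells, while mature colonocytes draw much of their energy from butyrate.

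The deposited values are estimated counts relative to library size (CPM) after TMM scaling, called scaled CPM here, and the library totals estimated from them lay between 108162911 and 135085096 counts. A count of 3 corresponded to between 0.0228 and 0.0271 scaled CPM, a floor that covers counting error only. The summed level of 5 epithelial markers (*Krt8*, *Epcam*, *Cldn7*, *Vil1* and *Cdh1*) ranged from 8884 to 9757 in controls and from 9418 to 10779 in treated animals. Summed smooth muscle markers reached 94.1 in control mouse 2 and 127 in GSK503 mouse 3, against 5.11 and 4.76 in GSK503 mice 1 and 2. The female-specific transcript *Xist* lay between 0.419 and 0.936 in the control libraries and between 825 and 1236 in the treated libraries, and the Y-linked *Uty* lay between 42.5 and 53.7 against 0.67 and 1.08. Treatment and sex therefore cannot be told apart in any comparison that follows. *Ezh2* itself averaged 43.6 ± 5.29 (SD, n = 3) and 36.0 ± 0.769 (SD, n = 3), which did not pass the test (limma adjusted p = 0.291), and its mRNA does not measure the activity of the inhibited enzyme.

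Most genes of the pathway differed little between the groups. None of the 31 was called at an adjusted p below 0.05 in limma, with Benjamini-Hochberg adjustment over all 16670 genes, where 0.498% of all genes were called higher and 0.144% lower (0.642% in either direction), and limma-voom on the recovered counts also called 0. At an unadjusted p below 0.05, 5 genes were higher (*Pfkfb3*, *Eno1*, *Slc16a3*, *Slc2a1* and *Pgam1*) and 0 were lower, against 7.06% and 6.27% of all genes (13.3% in either direction). At an adjusted p below 0.1, the wider threshold used here, 1 gene was higher, *Pfkfb3*, and 0 were lower, with 1.41% of all genes called higher and 0.558% lower (1.97% in either direction). Each log2FC is the treated minus the control mean of log2(value + 0.1), which understates the change of low genes.

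The means were higher in treated mice for 25 of the 31 genes and lower for *Hk2*, *Pfkm*, *Gapdh*, *Pdk2*, *G6pdx* and *Rpia*, while 48.9% of all genes had a higher mean. The median log2FC of the 31 was 0.11, beside -0.01 over all genes tested, and it was 0.16 without control mouse 1 and 0.07 without GSK503 mouse 2. Scaling by library size alone moved the median of all genes to -0.12 and that of the 31 genes to -0.01, and 10 of the 25 genes then had a log2FC below 0. All 3 treated mice lay above all 3 controls for 5 genes (*Pfkfb3*, *Slc16a3*, *Eno1*, *Pgam1* and *Aldoa*), a pattern found in 9.84% of all genes, and the opposite order was found for 0 members and for 9.22% of all genes. The other 26 overlapped. For 26 of the 31 genes the 95% interval of the fold lay inside a 1.5-fold change in either direction, and for 28 it lay inside a 2-fold change. Genes with wider intervals were *Eno2*, *Slc16a3* and *Pfkfb3*, and, for the 1.5-fold bound, *Eno1* and *Slc2a1*.

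**Figure D1:**
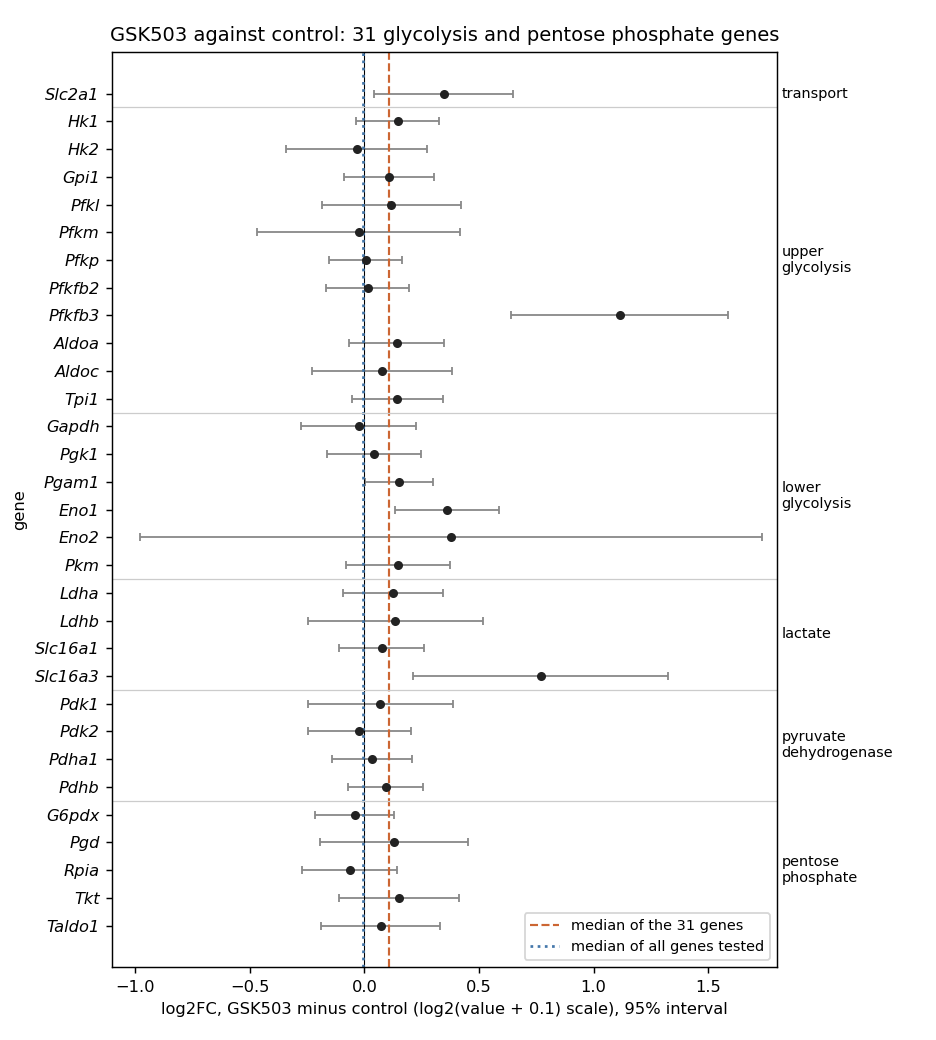
Log2FC of the 31 genes, ordered by step of the pathway, with *Pfkfb2* and *Pfkfb3* among the upper steps, points for the fitted value, bars for its 95% interval from limma and vertical lines for the medians of the 31 genes and of all genes tested. *Pfkfb3* stands at 1.11 and *Slc16a3* at 0.77, and most other points lie between -0.06 and 0.15.

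*Pfkfb3* was the gene with the largest difference. It encodes a bifunctional enzyme of high kinase activity that raises fructose 2,6-bisphosphate and so stimulates phosphofructokinase. The gene lies on chromosome 2 at 11476244 to 11558888, minus strand (GRCm39). Control mice 1, 2 and 3 measured 3.42, 3.202 and 4.85 scaled CPM, and GSK503 mice 1, 2 and 3 measured 7.83, 7.15 and 10.04. The lowest treated mouse lay above the highest control mouse. The log2FC was 1.11 ± 0.21 (SE), a 2.17-fold higher level with a 95% interval from 1.56 to 3.01, and the adjusted p from limma was 0.0522, past the 0.1 threshold and short of 0.05. Leaving out control mouse 1, control mouse 2, GSK503 mouse 1 or GSK503 mouse 2 gave adjusted p values of 0.129, 0.144, 0.123 and 0.177, and leaving out the intensity trend gave 0.214, all past neither threshold.

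*Pfkfb2*, a second enzyme of this kind, is the more abundant form in these crypts. It measured 47.8, 42.6 and 48.9 in the controls and 46.8, 47.6 and 46.0 in the treated mice. The groups overlapped, with a log2FC of 0.01 (95% interval -0.17 to 0.20). Per kilobase of canonical transcript, *Pfkfb3* made up 4.25 ± 0.742% of the sum of both genes in the controls against 8.82 ± 1.59% after GSK503 (SD, n = 3 each). The log2 ratio of *Pfkfb3* to *Pfkfb2* within a library, after the addition of 0.1, lay above the highest control in every treated library, with a difference of 1.10 and an exact two-sided permutation p of 0.1, the smallest that 3 mice against 3 allow, and 0.6 after adjustment over the 12 ratios compared.

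Goblet cell markers also separated the groups. All 6 of 6 goblet markers (*Tff3*, *Fcgbp*, *Clca1*, *Spink4*, *Agr2* and *Zg16*) averaged higher after GSK503, and their sum ranged from 10661 to 19019 in controls and from 33078 to 51366 in treated animals. All 6 enteroendocrine markers had a lower mean, with sums between 161 and 211 against 106 and 133. Among the proliferation markers 2 of 6 had a higher mean, with sums between 1203 and 1341 against 947 and 1143. The part of such cell types in the level of *Pfkfb3* or of any other gene was not tested, and in bulk crypts fewer cells of a type and less RNA per cell cannot be told apart.

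The windows from 250 bases before to 50 after the annotated starts of *Pfkfb3* and *Slc16a3*, the members with the largest log2FC among those whose groups did not overlap, are printed with 1 of the 2 listed for *Ldha*, a textbook target of hypoxia-inducible factor. Capitals mark ACGTG on either strand (CACGT where it is read from the other strand), a form of the core of the hypoxia response element. GCGTG, the other form of that core, was neither marked nor counted. The sequences are from RefSeq on GRCm38.p6, 5′ to 3′ on the strand of the gene.
*Pfkfb3*, chr2:11502041-11502340, minus strand: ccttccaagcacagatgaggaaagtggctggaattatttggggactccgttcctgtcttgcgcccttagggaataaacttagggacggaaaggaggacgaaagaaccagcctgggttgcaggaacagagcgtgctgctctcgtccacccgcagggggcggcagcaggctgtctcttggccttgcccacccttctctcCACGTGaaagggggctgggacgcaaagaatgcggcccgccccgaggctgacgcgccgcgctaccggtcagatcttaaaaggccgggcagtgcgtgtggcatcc
*Pfkfb3*, chr2:11553880-11554179, minus strand: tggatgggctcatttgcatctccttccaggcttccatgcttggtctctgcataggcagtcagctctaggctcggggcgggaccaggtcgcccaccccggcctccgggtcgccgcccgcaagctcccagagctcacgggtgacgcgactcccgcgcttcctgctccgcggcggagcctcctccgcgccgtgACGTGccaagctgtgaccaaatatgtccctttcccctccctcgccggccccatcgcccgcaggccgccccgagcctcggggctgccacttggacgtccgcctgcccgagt
*Slc16a3*, chr11:120948817-120949116, plus strand: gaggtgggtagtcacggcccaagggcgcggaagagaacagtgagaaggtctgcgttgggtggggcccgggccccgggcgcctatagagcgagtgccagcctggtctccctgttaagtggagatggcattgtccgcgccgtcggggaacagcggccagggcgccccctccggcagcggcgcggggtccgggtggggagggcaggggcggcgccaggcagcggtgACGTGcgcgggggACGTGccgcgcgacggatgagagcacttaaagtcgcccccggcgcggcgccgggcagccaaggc
*Ldha*, chr7:46845554-46845853, plus strand: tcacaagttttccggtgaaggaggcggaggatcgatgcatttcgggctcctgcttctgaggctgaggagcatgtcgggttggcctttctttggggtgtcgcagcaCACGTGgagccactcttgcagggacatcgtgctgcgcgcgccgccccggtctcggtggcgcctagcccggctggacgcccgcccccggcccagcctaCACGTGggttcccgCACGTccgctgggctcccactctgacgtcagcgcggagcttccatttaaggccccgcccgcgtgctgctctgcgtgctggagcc

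Each of the printed *Pfkfb3* windows holds 1 such stretch, the *Slc16a3* window holds 2 and the printed *Ldha* window holds 3, while the other *Ldha* window, which is not printed, holds 0. On both strands, ACGTG was found in 22 of 48 windows of member genes (45.8%) and in 3793 of 15926 windows of all genes matched (23.8%), or, by gene, in 18 of the 31 members (58.1%) and 3470 of 12654 genes (27.4%). CACGTG, the E-box that MYC binds and that contains ACGTG on both strands, was in 12.5% of member windows and 9.16% of all windows. GGGCGG, a binding sequence of SP1, was in 56.2% and 56.9%. By gene, CACGTG was in 19.4% of members and 10.8% of all genes, and GGGCGG in 77.4% and 62.5%. The shares by gene also depend on the number of windows, which was 48 for 31 members and 15926 for 12654 genes. The median log2FC was 0.08 over the 18 genes that hold ACGTG (13 of them with a higher mean) and 0.12 over the 13 that do not (12 with a higher mean). Such a match is a string of letters and no measured binding site.

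**Figure D2:**
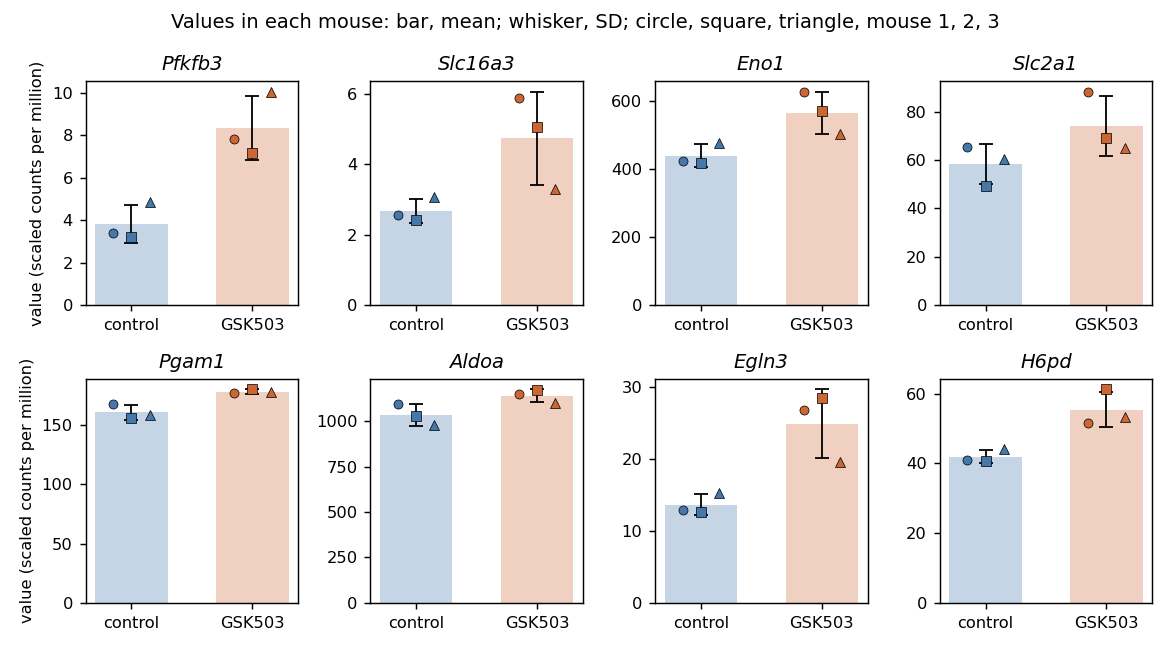
Level of 8 genes in each mouse, in scaled CPM, with bars for group means, whiskers for the SD (n = 3) and circle, square and triangle for mice 1, 2 and 3; *Egln3* and *H6pd* belong to the further lists. The treated mice lie above the controls for *Pfkfb3*, *Slc16a3* and *Eno1*, while GSK503 mouse 3, at 3.30 for *Slc16a3* and 503 for *Eno1*, lies nearest to the controls for both of these genes.

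Export of lactate is served by proton-coupled monocarboxylate carriers, of which MCT4 (*Slc16a3*) is the form of strongly glycolytic cells and MCT1 (*Slc16a1*) is the broadly expressed form that also carries butyrate in colonocytes. *Slc16a3* (chromosome 11, 120838846 to 120851694, plus strand, GRCm39) measured 2.57, 2.41 and 3.06 in the controls and 5.88, 5.07 and 3.30 in the treated mice. The groups did not overlap, although the third treated mouse lay close to the highest control. The log2FC was 0.77 ± 0.25 (SE; 95% interval 0.21 to 1.33) with a limma adjusted p of 0.216, and it was 1.01 with an adjusted p of 0.0687 without GSK503 mouse 3. Exons of *Slc16a3* share 2465 bases with those of *Csnk1d* on the opposite strand, a gene at 100, 89.4 and 89.7 in the controls and 90.0, 90.6 and 82.0 in the treated mice, and the strand setting of the counting is not given in the sources used here. *Csnk1d* had a log2FC of -0.09, and whether reads of these neighbours were mixed was not tested.

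*Slc16a1* was far more abundant and measured 265, 254 and 263 in the controls and 297, 281 and 248 in the treated mice. The groups overlapped (log2FC 0.08, 95% interval -0.11 to 0.26). *Slc16a3* accounted for 0.996 ± 0.115% of both carriers per kilobase in the controls against 1.64 ± 0.318% after GSK503 (SD, n = 3 each). The difference of the log2 ratio of *Slc16a3* to *Slc16a1* was 0.69, with no overlap between the groups (exact two-sided permutation p = 0.1, adjusted p = 0.6 over the 12 ratios).

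Lactate dehydrogenase is a tetramer of A and B subunits. *Ldha*, which encodes the subunit suited to reducing pyruvate, measured 661, 605 and 597 in the controls and 722, 713 and 601 in the treated mice. The first and second treated mice were above the highest control and the third was not, with a log2FC of 0.12 (95% interval -0.10 to 0.35). *Ldhb* lay between 9.32 and 13.6 in the controls and between 10.4 and 13.7 in the treated mice. *Ldha* made up 98.2% of the pair per kilobase in both groups.

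*Slc2a1*, which encodes the basal glucose transporter GLUT1, measured 65.2, 49.2 and 60.3 in the controls and 88.2, 69.3 and 65.0 in the treated mice. Only the third treated mouse fell within the range of the controls, by a margin of less than 1 scaled CPM. The log2FC was 0.35 ± 0.13 (SE; 95% interval 0.04 to 0.65), with a limma adjusted p of 0.308.

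Upper glycolysis, from hexokinase to triosephosphate isomerase, held 9 genes, of which 7 had a higher and 2 a lower mean, with log2FC between -0.03 and 0.14 and no adjusted p below 0.487. Hexokinase traps glucose in the cell as glucose 6-phosphate, and *Hk1* measured 297, 255 and 278 in the controls and 317, 307 and 292 in the treated mice. *Hk2*, the inducible form, measured 280, 312 and 402 against 367, 292 and 305. Both forms were expressed at like levels, and the share of *Hk1* in the pair per kilobase was 60.5 ± 5.10% and 63.5 ± 2.27%.

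Phosphofructokinase catalyses the committed step, and its platelet form *Pfkp* and liver form *Pfkl* carried nearly all of the mRNA. *Pfkp* measured 320, 299.7 and 303 in the controls and 298, 314 and 315 in the treated mice. *Pfkl* measured 239, 209 and 223 against 287, 258 and 192. The treated mice spread over a wider range than the controls for *Pfkl*, with an SD of 48.9 against 14.7. The muscle form *Pfkm* stayed between 6.43 and 9.83 and made up 1.53% and 1.48% of the family per kilobase.

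Phosphoglucose isomerase (*Gpi1*) averaged 633 ± 32.7 and 682 ± 40.4, and triosephosphate isomerase (*Tpi1*) averaged 542 ± 35.8 and 599 ± 38.5 (SD, n = 3 in each group). Aldolase A (*Aldoa*), which splits fructose 1,6-bisphosphate, measured 1095, 1030 and 977 in the controls and 1147, 1169 and 1100 in the treated mice. All treated mice lay above the controls, but the margin was small, and the log2FC of 0.14 (95% interval -0.07 to 0.35) had a limma adjusted p of 0.556. *Aldoc*, the brain form, lay between 15.8 and 21.9 over the 6 mice, so that *Aldoa* made up 99.0% and 99.1% of the pair per kilobase.

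Lower glycolysis, from glyceraldehyde 3-phosphate to pyruvate, held 6 genes, of which 5 had a higher mean. Enolase 1 (*Eno1*), which forms phosphoenolpyruvate, measured 424, 418 and 478 in the controls and 626, 570 and 503 in the treated mice. The groups did not overlap. The log2FC was 0.36 ± 0.10 (SE; 95% interval 0.13 to 0.59), or 1.28-fold, with a limma adjusted p of 0.154, and without GSK503 mouse 3 it was 0.44 with an adjusted p of 0.0724. The gene lies on chromosome 4 at 150321073 to 150337027 on the plus strand (GRCm39). Its near-identical copy *Eno1b* measured between 0.988 and 2.68 over the 6 mice.

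Phosphoglycerate mutase 1 (*Pgam1*), the enzyme before enolase, measured 168, 156 and 159 in the controls and 177, 180.2 and 178 in the treated mice. The groups were narrow and did not overlap, and the log2FC was 0.15 ± 0.07 (SE; limma adjusted p = 0.371). Pyruvate kinase (*Pkm*), the last enzyme of the route, measured 1108, 1052 and 1081 against 1274, 1251 and 1077. The third treated mouse fell among the controls, and the log2FC was 0.15 (95% interval -0.08 to 0.38).

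Glyceraldehyde 3-phosphate dehydrogenase (*Gapdh*), often used as a reference gene, measured 623, 547 and 650 in the controls and 657, 622 and 516 in the treated mice. These ranges overlapped almost entirely, with a log2FC of -0.02 (95% interval -0.28 to 0.23). The X-linked phosphoglycerate kinase gene *Pgk1* averaged 251 ± 20.5 and 259 ± 21.8 (SD, n = 3 each). *Eno2*, the neuronal enolase, was at 0.198, 0.217 and 0.134 in the controls and 0.0593, 0.255 and 0.757 in the treated mice, and the library with the highest value, GSK503 mouse 3, also had the highest summed neuron and glia markers, 4.44 against 1.13 to 2.71 in the other libraries. The part of neurons in this value was not tested, and *Eno2* made up less than 1% of enolase mRNA per kilobase in every mouse.

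**Figure D3:**
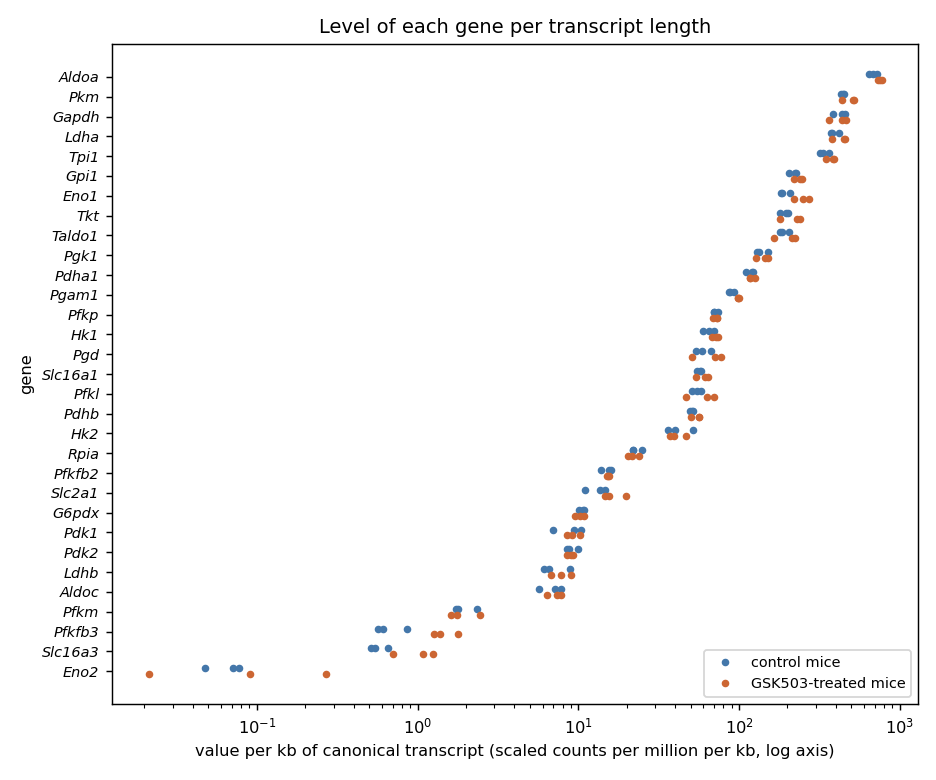
Level of each of the 31 genes per kilobase of canonical transcript (scaled CPM per kb, logarithmic axis), with a point for each control and GSK503-treated mouse. *Aldoa* leads with a mean of 719 over all 6 mice and *Eno2* is lowest at 0.0966, and the order of levels spans far more than any difference between the groups.

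Compared per kilobase, which allows genes to be set side by side, *Aldoa* stood highest at 719 scaled CPM per kilobase over the 6 mice, before *Pkm* at 466, *Gapdh* at 424, *Ldha* at 409 and *Tpi1* at 355. The glycolytic enzymes shared by all cells filled the upper part of this order. The transaldolase gene *Taldo1* at 195 and the transketolase gene *Tkt* at 204 stood beside *Eno1* at 219 and *Pgk1* at 140. *Pfkm* at 1.95, *Pfkfb3* at 1.08, *Slc16a3* at 0.79 and *Eno2* at 0.0966 closed it, so that the genes with the largest log2FC were among those with the lowest mRNA levels. These levels rest on a single transcript length per gene.

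The pyruvate dehydrogenase complex turns pyruvate into acetyl-CoA in mitochondria, and the PDK kinases inhibit it by phosphorylating its E1α subunit. Its 4 genes had log2FC between -0.02 and 0.09 and no adjusted p below 0.628. The E1α gene *Pdha1*, which is X-linked, measured 351, 343 and 315 in the controls and 334, 362 and 337 in the treated mice. The E1β gene *Pdhb* averaged 77.3 ± 1.44 and 82.6 ± 4.87 (SD, n = 3 each). Of the kinases, *Pdk1* lay between 36.9 and 54.5 in the controls and between 44.6 and 54.0 in the treated mice, and *Pdk2* between 19.7 and 22.9 against 19.6 and 21.4. All 4 pairs of groups overlapped.

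The pentose phosphate pathway was measured through 5 genes, with log2FC between -0.06 and 0.15, a median of 0.07 and no adjusted p below 0.625. In the oxidative branch, which makes NADPH, the X-linked entry enzyme *G6pdx* measured 64.01, 59.5 and 63.0 in the controls and 60.9, 63.9 and 56.4 in the treated mice. Phosphogluconate dehydrogenase (*Pgd*) measured 187, 203 and 229 against 264, 245 and 176. The treated mice thus held both the highest and the lowest value of *Pgd*, with a log2FC of 0.13 (95% interval -0.19 to 0.45).

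Of the non-oxidative genes, which interconvert sugars and make ribose 5-phosphate, transketolase (*Tkt*) measured 653, 632 and 584 in the controls and 736, 772 and 579.5 in the treated mice. *Taldo1* measured 228, 258 and 233 against 271, 282 and 208. In both, GSK503 mice 1 and 2 exceeded every control and GSK503 mouse 3 fell below every control. Ribose 5-phosphate isomerase (*Rpia*) averaged 42.0 ± 3.27 and 40.2 ± 3.17 (SD, n = 3 each). The 3 X-linked members, *Pgk1*, *Pdha1* and *G6pdx*, had log2FC of 0.04, 0.03 and -0.04.

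GSK503 mouse 3 stood apart from the other treated mice over much of the pathway. It had the lowest value of the 3 treated mice for 21 of the 31 genes, beside 42.7% of all genes tested, while GSK503 mice 1 and 2 were lowest for 7 and 3. Relative to the mean of the controls on the log2 scale, the median over the 31 genes came to 0.06, -0.04 and -0.02 for control mice 1, 2 and 3, and to 0.15, 0.18 and 0.00 for GSK503 mice 1, 2 and 3, where the median over all genes stayed between -0.01 and 0.01. The same library had the highest summed markers of smooth muscle (127), fibroblasts (113), macrophages (35.5) and endothelium (12.05) among the 6 mice, and the lowest summed colonocyte markers, 1994 against 2952 to 5320 in the others. Single markers of *Pdgfra* (fibroblast), *Cd68* and *Mrc1* (macrophage) and *Flt1* (endothelium) were not highest in this mouse, and *Mrc1* was lowest there (1.47). The colonocyte sum followed *Car1*, at 954 in this mouse against 1791 to 4019 in the others. *Slc26a3* (248), *Aqp8* (104), *Krt20* (611) and *Slc37a2* (77.3) lay there within the range of the other mice. The untransformed treated mean was higher for 1 of 8 smooth muscle and 2 of 6 fibroblast markers. It was also higher for 1 of 7 macrophage and 5 of 5 colonocyte markers. Of these higher markers, *Des* (-1.97), *Lum* (-1.02), *Adgre1* (-0.29) and *Car1* (-0.04) had a log2FC below 0. The part of these cell types in the values of this mouse was not tested. Without it, 3 of the 31 genes (*Pfkfb3*, *Slc16a3* and *Eno1*) were called higher at an adjusted p below 0.1 in limma, beside 2.16% of all genes called higher and 1.52% lower in that fit, and with it 1 was.

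**Figure D4:**
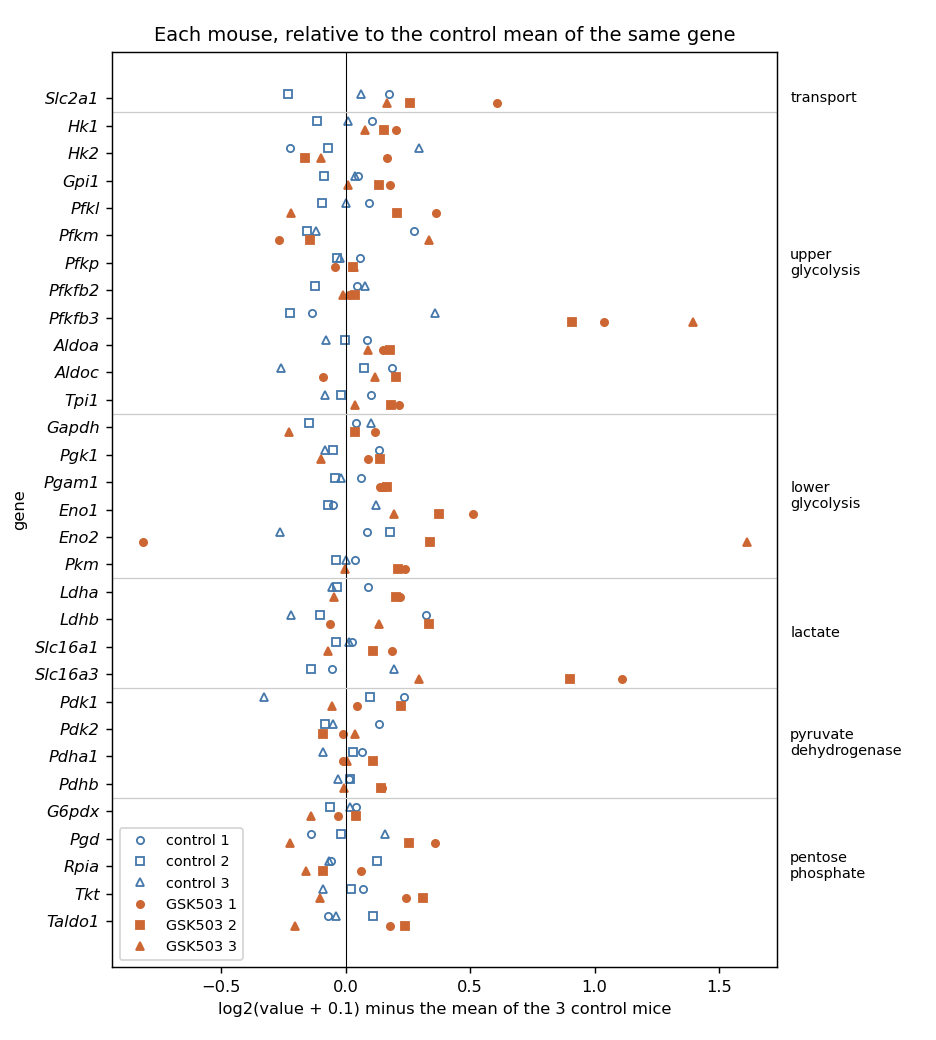
Deviation of each of the 31 genes from its control mean, in log2 units, with open symbols for control mice and filled symbols for GSK503 mice. The medians over the genes are 0.15 and 0.18 in GSK503 mice 1 and 2 and 0.00 in GSK503 mouse 3, whose triangles lie to the left of the other treated mice for 21 genes.

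Of the 12 within-library ratios of related enzymes, 10 overlapped between the groups, with exact two-sided permutation p between 0.4 and 1. The log2 ratio of *Hk2* to *Hk1* averaged 0.25 ± 0.31 and 0.07 ± 0.14, and that of *Pfkp* to *Pfkl* averaged 0.46 ± 0.05 and 0.35 ± 0.34 (SD, n = 3 each). The ratio of *G6pdx* to *Pfkl*, which sets entry into the pentose phosphate pathway beside the committed step of glycolysis, averaged -1.84 ± 0.05 and -2.004 ± 0.24. Since 3 mice against 3 cannot give a p under 0.1, these tests could not pass a threshold of 0.05 for any ratio, and the ranges over the mice are given as a description.

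**Figure D5:**
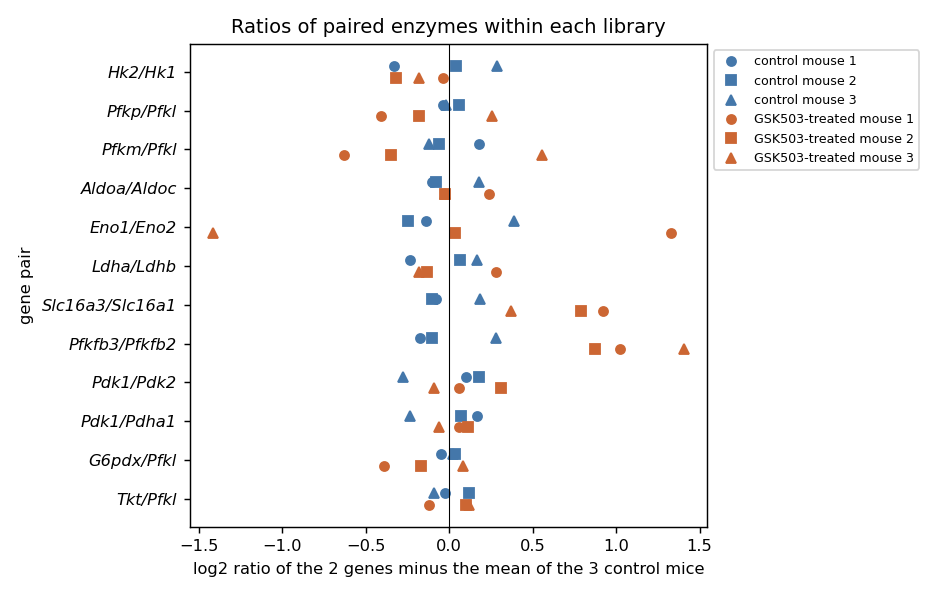
Log2 ratios of 12 pairs of genes within each library, less the mean of the 3 control mice, with a point for each mouse. The ratios of *Pfkfb3* to *Pfkfb2* and of *Slc16a3* to *Slc16a1* are the 2 in which all treated mice lie above the controls.

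Beyond the 31 genes, 107 further genes of glucose metabolism and its regulation were listed, and 99 of them passed the filter. Among 18 regulators, 1 rose at an adjusted p below 0.05, *Egln3*, a prolyl hydroxylase that marks hypoxia-inducible factor for degradation and is itself induced by it. It measured 12.9, 12.6 and 15.3 in the controls and 26.7, 28.4 and 19.5 in the treated mice. The groups did not overlap, and the log2FC was 0.85 ± 0.15 (SE; 95% interval 0.51 to 1.195; limma adjusted p = 0.0471). The list held 3 higher and 2 lower at an unadjusted p below 0.05, and 0.498% of all genes were called higher at an adjusted p below 0.05. The call is close to its threshold, since the adjusted p over 18 alternatives ran from 0.0101 to 0.237, and it was between 0.0751 and 0.237 when any mouse other than GSK503 mouse 3 was left out. *Epas1*, which encodes HIF-2α, measured 68.6, 65.2 and 85.7 against 54.2, 57.1 and 51.6, with a log2FC of -0.42 and a limma adjusted p of 0.121.

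Hypoxia-responsive genes outside glycolysis, 15 in number, had a median log2FC of 0.10, and 13 had a higher mean, beside -0.01 and 48.9% over all genes, but 0 were called in limma at an adjusted p of 0.05 or 0.1 and 1 in each direction had an unadjusted p below 0.05, where 7.06% of all genes were higher and 6.27% lower. These were *Bnip3*, a mitophagy receptor, at a log2FC of 0.47 (limma adjusted p = 0.288), and the histone demethylase gene *Kdm3a*, at a log2FC of -0.16 (limma adjusted p = 0.367). The other pentose phosphate and NADPH genes, 10 tested, held 1 gene past the 0.1 threshold, where 1.41% of all genes were higher, and 0 past 0.05. This was *H6pd*, which encodes the form of glucose 6-phosphate dehydrogenase in the endoplasmic reticulum, at 41.1, 40.5 and 44.0 in the controls and 51.6, 61.2 and 53.3 in the treated mice. All treated mice were higher. The log2FC was 0.40 ± 0.09 (SE; limma adjusted p = 0.0812), and leaving out any mouse other than GSK503 mouse 3 gave an adjusted p between 0.126 and 0.359, library size alone gave 0.109 and leaving out the intensity trend gave 0.276. *Rbks*, which encodes ribokinase, stood at a log2FC of 0.51 (limma adjusted p = 0.243).

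The remaining lists had 0 genes called in either direction at an adjusted p of 0.05 or 0.1 in limma. Their counts at an unadjusted p below 0.05 stand beside 7.06% of all genes higher and 6.27% lower. Hexose entry and the use of fructose and galactose, with 19 genes tested, had 2 higher and 2 lower at an unadjusted p below 0.05, and its smallest p belonged to *Slc2a13*, a myo-inositol transporter gene (log2FC -0.28, adjusted p = 0.204). The other glycolysis, lactate and pyruvate dehydrogenase genes, with 24 tested, had 3 higher and 0 lower at an unadjusted p below 0.05, led by the muscle enolase gene *Eno3* (log2FC 0.63, adjusted p = 0.186) and the pyruvate dehydrogenase phosphatase gene *Pdp2* (log2FC 0.21, adjusted p = 0.353). Gluconeogenesis and glycogen, with 13 tested, had 3 higher and 0 lower at that level, led by pyruvate carboxylase, *Pcx* (log2FC 0.46, adjusted p = 0.129), and the liver glycogen phosphorylase gene *Pygl* (log2FC 0.64, adjusted p = 0.270). The median log2FC of these lists was -0.00, 0.08 and 0.02, beside -0.01 over all genes tested.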

How the data were processed

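Total RNA of colonic crypts was analysed from 3 control and 3 GSK503-treated mice of a Lynch syndrome model, grouped by the sample labels, with 1 library per mouse and paired-end 76-base reads from a stranded kit. Per the labels and the study's methods, the authors used STAR for alignment to GRCm39, RSEM to estimate gene counts and edgeR's TMM method to scale them. The strand setting of the counting is not given in the sources used here. The deposited signal is thus a CPM of estimated counts over the TMM-scaled library size, not a raw count. Between 79.9% and 82.5% of values were whole multiples of the worth of 1 count (tolerance 0.02 counts), which gave the library totals. Pearson's r across genes between libraries was 0.976 to 0.990.

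The members and the lists around them were drawn up by gene function, and they and the tests were chosen with earlier results of these data known. Groups were compared with limma 3.58.1 (R 4.3.3) on log2(value + 0.1) with an intensity trend, over genes with at least 0.1 in at least 3 mice, and Benjamini-Hochberg adjustment. Within-library ratios were compared by exact two-sided permutation. The genes named are all 31 members and, in each other list, those with an adjusted p below 0.1, or the 2 with the smallest p where fewer than 2 passed, apart from 1 gene that is not reported here. Marker genes and *Xist*, *Uty*, *Ezh2*, *Csnk1d* and *Eno1b* are named only for their bearing on a member. Cell type markers not named in the results are summed over T cells (6.28 to 9.29 in controls, 6.84 to 7.51 in treated mice), B cells (20.1 to 63.6 against 1.27 to 59.0) and red blood cells (4.84 to 7.17 against 2.26 to 4.43). Coordinates and transcript lengths are from GENCODE M39. Exons of 17 members overlap another gene, 10 of them a protein-coding gene on the opposite strand, and many glycolytic genes have processed pseudogenes that can share reads. Promoter windows are from RefSeq (GRCm38.p6), matched by symbol for all 31 members. Python 3.11.15 with pandas 2.3.3, scipy 1.17.1 and matplotlib 3.10.9 was used. Alternatives were other scalings, filters, pseudocounts and variance models, limma-voom, a replicate block, leaving out X- and Y-linked genes and leaving out each mouse. Only the crypt libraries were analysed here.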

Additional observations from a re-analysis of the deposited data

How the results depend on the processing

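Of 554 recomputed values of single members, 515 kept their direction and their side of the 0.05 threshold. The members called higher at 0.05 numbered 0, and 1 (*Pfkfb3*) with a filter of at least 1 in at least 3 mice (adjusted p = 0.0487) and with robust empirical Bayes (0.0396). At 0.1 the count of 1 became 0 without the intensity trend and ran from 0 to 3 as each mouse was left out. The members' median log2FC ran from 0.07 to 0.16 as each mouse was left out. Library size alone lowered the median of all genes to a log2FC of -0.12 and that of the members to -0.01. Under that scaling *Gpi1* was -0.0069, *Pfkp* -0.11, *Aldoc* -0.037, *Pgk1* -0.072, *Slc16a1* -0.039, *Pdk1* -0.044, *Pdha1* -0.081, *Pdhb* -0.022, *Pfkfb2* -0.10 and *Taldo1* -0.043, each above 0 as reported. Library size without genes above 1% gave -0.018 for *Pfkp* and -0.010 for *Pfkfb2*.

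As each mouse was left out, the sign changed for *Hk2* (-0.14 to 0.11), *Pfkl* (-0.0060 to 0.29), *Pfkm* (-0.21 to 0.11), *Pfkp* (-0.012 to 0.035), *Aldoc* (-0.054 to 0.17), *Gapdh* (-0.097 to 0.078), *Pgk1* (-0.0048 to 0.11), *Eno2* (-0.24 to 0.98), *Pdk1* (-0.095 to 0.19), *Pdk2* (-0.062 to 0.045), *Pdha1* (-0.012 to 0.066), *Pfkfb2* (-0.047 to 0.053), *G6pdx* (-0.084 to 0.0058) and *Taldo1* (-0.012 to 0.21). The difference of the within-library log2 ratio changed sign for *Pfkp* to *Pfkl* (-0.29 to 0.038), *Pfkm* to *Pfkl* (-0.49 to 0.10), *Aldoa* to *Aldoc* (-0.025 to 0.15), *Eno1* to *Eno2* (-0.69 to 0.68), *Ldha* to *Ldhb* (-0.16 to 0.074), *Pdk1* to *Pdk2* (-0.047 to 0.18), *Pdk1* to *Pdha1* (-0.082 to 0.12) and *Tkt* to *Pfkl* (-0.013 to 0.11). That of *Eno1* to *Eno2*, -0.017 with the pseudocount of 0.1, was 0.0097 with a pseudocount of 0.01 and 0.19 with a pseudocount of 1. The other genes called higher at 0.05 numbered 1 (*Egln3*), became 0 without the intensity trend, with pseudocounts of 0.01 and 1 (adjusted p = 0.0514 and 0.0565), with limma-voom (0.0502) and without X and Y genes (0.0504), and ran from 0 to 1 as each mouse was left out. With library size alone 1 of them was called lower (*Epas1*, -0.53, adjusted p = 0.0445), against 0 otherwise.

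The shared replicate numbers did not pair the mice, with correlations of deviations of 0.03, -0.13 and -0.12 for the numbers 1, 2 and 3, and no mouse of either group correlated best with its own number. With the replicate number as a block, 0 members were called at 0.05 and 1 at 0.1 (*Pfkfb3*, adjusted p = 0.0813), and *Egln3* and *H6pd* had adjusted p values of 0.135 and 0.173. The causes of these changes were not tested.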
